A study of Mus musculus with 6 samples.

Results

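The neural cell adhesion molecule gene *Ncam1*, its relatives and the enzymes that build 2 of its sugar epitopes were followed in cultured 4T-1 cells, which are mouse mammary carcinoma cells. They are 10 of the 40205 genes in the count table. *Ncam1* and *B3gat1* were chosen by their measured read counts, for a strong fall in Y641-F cells in these same libraries, so their difference is described here without a test. The other 8 were taken for their family or enzyme class: *Ncam2*, the L1 family (*L1cam*, *Chl1*, *Nrcam*, *Nfasc*), the sulfotransferase *Chst10* and the polysialyltransferases *St8sia2* and *St8sia4*. Control cells carried the empty retroviral vector MSCV, and Y641-F cells carried EZH2 Y641-F, a hyperactive form of the enzyme that methylates lysine 27 of histone H3. Each group had 3 RNA-seq libraries, which the series' design text describes as different batches, and whether each came from its own transduction is not given in the sources used here. The p-values then measure the spread between these libraries. Whether the stable cells were pools or clones is not given either. The study's methods name puromycin for the set of lines at one place and hygromycin for Y641-F at another, so the selection drug cannot be told apart from the group.

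Cell adhesion molecules of the immunoglobulin superfamily hold neighbouring neurons, axons and glia together. NCAM binds itself on the next cell, while L1 family members bind each other and integrins, and anchor to the cytoskeleton through ankyrins. Sugars tune this adhesion: the HNK-1 epitope is a sulfated glucuronic acid on the end of a glycan, added in turn by a glucuronyltransferase and a sulfotransferase, and polysialic acid is a long sialic acid chain that weakens the grip of NCAM.

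The libraries held 32509268 to 36429035 counts, with 24727 to 27024 genes detected in each. Genes with at least 0.1 CPM (counts scaled to a common library size) in at least 3 libraries were tested, 21043 in all, and a gene was called at an adjusted p under 0.05 in edgeR's quasi-likelihood test. SE stands for the error of a fitted log2 fold change. Of these, 16.0% were called lower and 15.6% higher in Y641-F cells, and the median log2 fold change was -0.01. The groups did not overlap, with every Y641-F library below every Control library, in 23.3% of tested genes, and did not overlap the other way in 21.2%. Mouse *Ezh2*, the gene of the enzyme introduced, held 3574, 4350 and 3644 Control counts and 3686, 3354 and 4196 Y641-F counts. It was not called (log2 fold change 0.06, SE 0.102, adjusted p = 0.73, edgeR). Whether reads of the construct were counted under mouse *Ezh2* is not given, so this row does not check the labels. The 10 epithelial markers summed to 3896 to 4009 CPM in Control libraries and 3904 to 4436 CPM in Y641-F libraries, with *Krt8*, a simple keratin, the most abundant; *Krt19* was called lower and *Cldn3* and *Cldn7* higher.

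*Ncam1* encodes the founding member of the NCAM family and lies on the reverse strand of chromosome 9 (GRCm39, chr9:49413436-49710357). Control libraries 1, 2 and 3 held 271, 208 and 151 *Ncam1* counts, and Y641-F libraries 1, 2 and 3 held 15, 8 and 14. All 3 Y641-F libraries were far below the lowest Control library. Mean levels were 5.97 ± 1.499 CPM for Control and 0.379 ± 0.122 CPM for Y641-F (SD, n = 3 libraries each). The fit gave a log2 fold change of -3.97 (SE 0.297, 95% confidence interval -4.62 to -3.32), a level 15.7-fold lower in Y641-F cells. It stood at rank 51 from the lowest of the 21043 log2 fold changes. In bulk RNA, fewer cells expressing a gene and less RNA per cell cannot be told apart. *Gm11149*, a long non-coding RNA on the opposite strand, shares 417 exon bases with *Ncam1* and had 0 to 4 counts in a library. Whether the counting used strand is not given in the sources used here.

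*L1cam*, the L1 adhesion molecule that promotes axon growth and fasciculation, was the one member chosen for its family that passed the test. The gene lies on the reverse strand of chromosome X (GRCm39, chrX:72897378-72939711). Control libraries held 1704, 1389 and 1206 *L1cam* counts, and Y641-F libraries 537, 657 and 554. The groups did not overlap. The mean fell 2.29-fold, from 40.8 ± 5.83 to 17.8 ± 1.999 CPM (SD, n = 3 libraries each). The fit gave a log2 fold change of -1.20 (SE 0.122, 95% confidence interval -1.46 to -0.93, adjusted p = 2.23e-05 by edgeR). *Arhgap4*, a same-strand neighbour that shares 100 exon bases with *L1cam*, had 19 to 80 counts in a library.

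**Figure D1:**
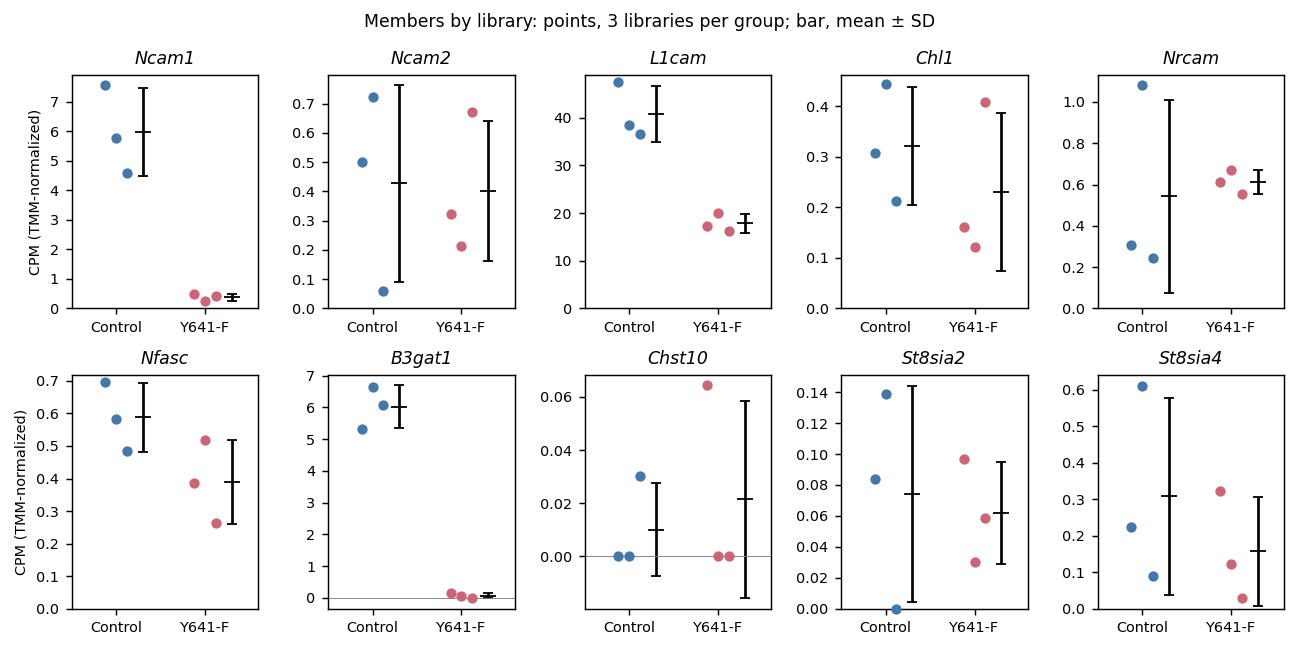
CPM of each of the 10 member genes (one panel a gene, each vertical axis with its own scale) in the 3 Control and 3 Y641-F libraries, with a point for each library and the mean and SD for each group. Axes start at 0 except for *B3gat1* and *Chst10*, where an SD bar reaches below 0. *Ncam1*, *B3gat1* and *L1cam* have groups that do not overlap, and the other 7 genes overlap.

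Of the 6 family or enzyme members that could be tested, 1 was called lower and 0 higher, against 16.0% and 15.6% of all genes tested, with a median log2 fold change of -0.53 against -0.01. The 8 members that passed the filter include *Ncam1* and *B3gat1*, and *B3gat1* passed only through the Control group. The other 5 tested members were at the bottom of detection, where the test has little reach. *Nrcam*, the L1 family member of nodes and growth cones, had Control counts of 11, 39 and 8 and Y641-F counts of 19, 22 and 19. Its Control libraries spread on both sides of the Y641-F libraries. Its log2 fold change was 0.16 (SE 0.552, adjusted p = 0.86 by edgeR, 95% confidence interval -1.04 to 1.37). *Nfasc*, which encodes neurofascin of the axon initial segment and node, had 25, 21 and 16 counts against 12, 17 and 9. One Y641-F value, 17 in library 2, lay inside the Control range. Its log2 fold change was -0.59 (95% confidence interval -1.59 to 0.40, adjusted p = 0.367 from edgeR).

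*Ncam2*, the NCAM relative known from olfactory axons, had Control counts of 18, 26 and 2 and Y641-F counts of 10, 7 and 23. The Y641-F values lay within the Control range. The log2 fold change was -0.09 with an interval of -1.64 to 1.46 (adjusted p = 0.943 from edgeR). *Chl1*, the close homologue of L1, had 11, 16 and 7 counts against 5, 4 and 14, and a log2 fold change of -0.46 (interval -1.83 to 0.90, adjusted p = 0.627 from edgeR). These intervals include changes of more than 1 log2 unit. For *Ncam2* and *Chl1* a fall as large as that of *L1cam* thus could not be told from none in these libraries.

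**Figure D2:**
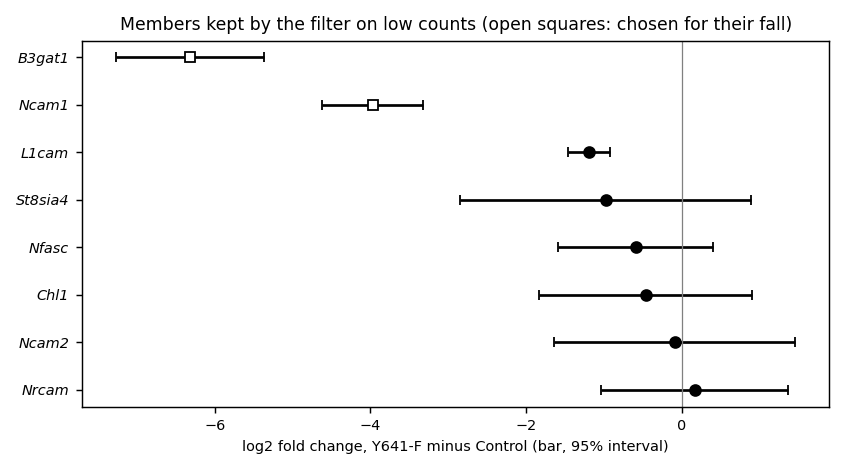
Log2 fold change (Y641-F against Control) of the 8 members tested, with bars for the 95% confidence interval from the fit. *B3gat1* and *Ncam1*, chosen for their fall, stand at -6.32 and -3.97, *L1cam* at -1.20, and the intervals of the other 5 include 0.

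*B3gat1* encodes the glucuronyltransferase GlcAT-P, which adds the glucuronic acid of the HNK-1 epitope, also known as CD57. The gene lies on the forward strand of chromosome 9 (GRCm39, chr9:26645023-26674397), 22.7 Mb from *Ncam1*. Control libraries held 191, 240 and 201 *B3gat1* counts, and Y641-F libraries 5, 2 and 0. Each Y641-F library sat at or near the floor of 3 counts, 0.0833 to 0.0965 CPM. Mean levels were 6.02 ± 0.671 CPM for Control and 0.0740 ± 0.0812 CPM for Y641-F (SD, n = 3 libraries each). Summed over the 3 libraries of each group, 632 counts stood against 7. The fit gave -6.32 on the log2 scale (SE 0.435, 95% confidence interval -7.27 to -5.37), a fitted 80.0-fold, at rank 14 from the lowest of 21043. Leaving out Y641-F 1, the library with the most *B3gat1* counts in its group, moved it to -7.49, and leaving out Y641-F 3, the library at 0, moved it to -5.73.

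The related glucuronyltransferase of the epitope, *B3gat2* (GlcAT-S), gave a reference within the same pathway. Its counts were 892, 869 and 805 for Control and 677, 763 and 843 for Y641-F, with overlapping ranges. It was not called (log2 fold change -0.07, SE 0.0921, 95% confidence interval -0.27 to 0.13, adjusted p = 0.598 from edgeR). *B3gat3*, which builds the linker of proteoglycans, was also not called (log2 fold change -0.10, adjusted p = 0.421 from edgeR). Per kb of exon, *B3gat1* made up 20.7, 25.2 and 23.3% of the *B3gat1* and *B3gat2* signal in Control libraries, against 0.892, 0.318 and 0% in Y641-F. The 2 ranges did not overlap, and the choice of *B3gat1* for its fall fixes that direction. *Chst10*, the sulfotransferase that adds the terminal sulfate of HNK-1, had Control counts of 0, 0 and 1 and Y641-F counts of 2, 0 and 0, and was not tested. All 6 values lay under the floor of 3 counts, so a difference in *Chst10* was not detectable at this depth.

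RefSeq promoter windows (GRCm38.p6, 300 bases across a start) were available for 9 of the 10 members. Windows of 3 genes are shown: that of *B3gat1*, the enzyme chosen for its fall, that of *L1cam*, the family member called lower, and that of *Nrcam*, an L1 family member that was not called. Capitals mark CpG dinucleotides. PRC2, the complex of EZH2, is known to act largely at CpG-rich promoters. *B3gat1* is the + strand window chr9:26751312-26751611, *L1cam* the - strand window chrX:73880741-73881040, the first of 2 overlapping windows, and *Nrcam* the + strand window chr12:44328635-44328934.
B3gat1: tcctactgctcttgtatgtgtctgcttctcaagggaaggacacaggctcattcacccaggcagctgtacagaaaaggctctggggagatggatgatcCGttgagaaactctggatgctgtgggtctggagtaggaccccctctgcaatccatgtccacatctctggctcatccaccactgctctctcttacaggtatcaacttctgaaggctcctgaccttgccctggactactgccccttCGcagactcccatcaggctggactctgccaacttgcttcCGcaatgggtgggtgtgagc
L1cam: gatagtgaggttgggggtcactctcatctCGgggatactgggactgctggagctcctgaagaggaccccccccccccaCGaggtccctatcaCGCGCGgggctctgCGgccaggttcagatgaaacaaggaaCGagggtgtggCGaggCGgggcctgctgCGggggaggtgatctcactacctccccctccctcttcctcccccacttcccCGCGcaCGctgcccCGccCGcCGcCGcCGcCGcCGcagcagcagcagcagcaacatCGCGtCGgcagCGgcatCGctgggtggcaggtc
Nrcam: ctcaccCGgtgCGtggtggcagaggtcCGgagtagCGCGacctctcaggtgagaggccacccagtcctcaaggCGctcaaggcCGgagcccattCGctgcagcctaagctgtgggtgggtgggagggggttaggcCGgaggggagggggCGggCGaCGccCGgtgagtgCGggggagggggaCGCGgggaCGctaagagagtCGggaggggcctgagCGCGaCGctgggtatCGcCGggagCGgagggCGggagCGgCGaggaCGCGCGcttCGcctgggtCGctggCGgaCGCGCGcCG

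The *B3gat1* window held 3 CpG, fewer than most members' windows, and 23.3% of the 32851 RefSeq promoter windows held fewer. The start it belongs to lies 17.8 kb past the start of the gene in the same table, so other *B3gat1* starts were not examined. The *L1cam* window held 25 CpG (81.6% of windows held fewer) and the *Nrcam* window 37 CpG (94.4% held fewer), against a median of 7 over all windows. The GC box GGGCGG, searched on both strands, was in 35.7% of all windows, in the *L1cam* window 1 time, in the *Nrcam* window 2 times and in the *B3gat1* window 0 times; the motif contains a CpG. The E-box CACCTG was found in the *Nrcam* window 1 time and in the other 2 windows 0 times (20.2% of all windows hold it), and the hypoxia response core ACGTG in none of the 3 (19.6% of all windows). A match in these windows is a description of letters only.

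The HNK-1 epitope also needs a sugar donor, a sulfate donor and the glycan it sits on, and 20 of the 21 listed genes for these were tested. Of them 7 were called lower, 2 higher and 11 not called, with a median log2 fold change of -0.44. Over all genes tested the shares were 16.0% lower and 15.6% higher. *Papss1*, which makes the sulfate donor PAPS, had 4630, 5281 and 4624 Control counts and 2139, 2028 and 2573 Y641-F counts. It fell by 1.01 on the log2 scale (SE 0.0967, adjusted p = 1.44e-05 by edgeR). *Ugp2* and *Ugdh*, which make UDP-glucose and UDP-glucuronic acid, had log2 fold changes of -0.61 (adjusted p = 0.000824 from edgeR) and -0.53 (adjusted p = 0.000698 from edgeR). *Ugdh* was the most abundant of the list at 196 CPM in Control cells. *B4galt1*, which adds the galactose that the glucuronic acid caps, fell by 0.61 on the log2 scale (adjusted p = 0.000238 by edgeR). *Tnc*, encoding tenascin-C, a known carrier of HNK-1, rose from 870, 715 and 668 counts to 1493, 1101 and 1453 (log2 fold change 0.95, adjusted p = 0.000213 from edgeR). The other gene called higher was *B4galt2*, a second galactosyltransferase (0.36, adjusted p = 0.0139 from edgeR). *Ptprz1* and *Ncan*, proteoglycan genes of the nervous system, were low throughout, with 15, 18 and 20 counts against 6, 2 and 4 and with 17, 19 and 16 against 1, 5 and 5. Like *B3gat1*, they passed the filter on low counts only through the Control group, so their difference is described without a test. Both are among the 7 counted as called lower and enter the median of -0.44. *Chst14*, a sulfotransferase of dermatan sulfate, was the remaining gene called lower (-0.43, adjusted p = 0.00802 from edgeR).

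**Figure D3:**
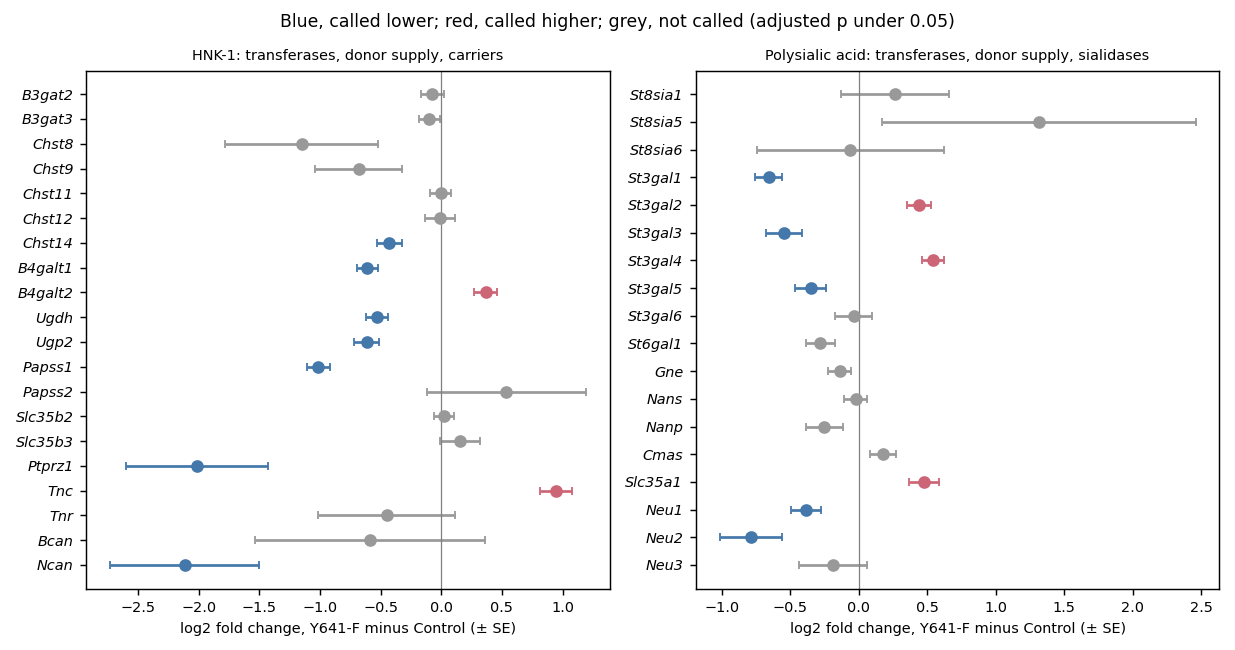
Log2 fold change (Y641-F against Control) of the genes tested in the lists for the HNK-1 epitope and for polysialic acid, with bars for the SE and colours for the call at an adjusted p under 0.05. *Papss1* is at -1.01 and *Tnc* at 0.95, and both lists hold calls in each direction.

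Polysialic acid is added to NCAM by *St8sia4* and *St8sia2*, which lie at the bottom of detection. *St8sia4* had Control counts of 8, 22 and 3 and Y641-F counts of 10, 4 and 1, with overlapping groups. It was not called (log2 fold change -0.98, SE 0.856, 95% confidence interval -2.85 to 0.89, adjusted p = 0.432 from edgeR). *St8sia2* had 3, 5 and 0 counts against 3, 1 and 2 and was not tested. Around them, 18 of the 20 genes for other sialyltransferases, sialic acid supply and sialidases were tested, with 5 called lower, 3 higher and 10 not called and a median log2 fold change of -0.10, beside 16.0% lower and 15.6% higher over all genes. The count of 8 called fell to 5 without Control 3 and to 5 without Y641-F 3. *St3gal1* and *St3gal3*, which cap galactose with sialic acid, fell (log2 fold changes -0.66, adjusted p = 0.000372, and -0.55, adjusted p = 0.00797, both from edgeR), while *St3gal4*, a relative with the same linkage, rose (0.54, adjusted p = 0.000293 from edgeR). The others called higher were *St3gal2* (0.44, adjusted p = 0.0027 from edgeR) and *Slc35a1*, the carrier of CMP-sialic acid into the Golgi (0.48, adjusted p = 0.0056 from edgeR). *St3gal5*, which makes the ganglioside GM3, and *Neu1*, the lysosomal sialidase, were called lower (-0.35 and -0.39, adjusted p = 0.0319 and 0.0181 from edgeR). *Neu2*, a cytosolic sialidase, fell from 95, 83 and 83 counts to 48, 47 and 46 (log2 fold change -0.79, adjusted p = 0.0201 from edgeR). It missed the threshold without Control 1, Control 3 or Y641-F 3, with adjusted p = 0.0698, 0.0588 and 0.0615 from edgeR. *Nans*, the synthase of sialic acid and the most abundant of the list, was not called (log2 fold change -0.02, adjusted p = 0.876 from edgeR).

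Levels were compared between the member genes per kb of exon. In Control cells *L1cam* led at 5.15 ± 0.736 CPM per kb (SD, n = 3), followed by *B3gat1* at 1.18 ± 0.132 and *Ncam1* at 0.678 ± 0.170. Below these 3, *Nfasc* (0.0335 ± 0.00605), *Ncam2* (0.0326 ± 0.0256), *Nrcam* (0.0284 ± 0.0244) and *Chl1* (0.0228 ± 0.00828) do not differ beyond their spread. The enzymes *St8sia4* (0.0153 ± 0.0134), *St8sia2* (0.0132 ± 0.0124) and *Chst10* (0.00081 ± 0.0014) came last, and their neighbours in this order overlap too. In Y641-F cells *L1cam* still led at 2.25 ± 0.252 CPM per kb, with *Ncam1* at 0.0430 ± 0.0139, *Nrcam* at 0.0320 ± 0.00304 and *B3gat1* at 0.0145 ± 0.0160. *Ncam1* and *Nrcam* then do not differ beyond their spread. The 6 adhesion members summed to 42.1 to 56.8 CPM in Control libraries and 18.5 to 21.8 CPM in Y641-F libraries. Per length, *L1cam* made up 85.4 to 88.8% of them in Control libraries and 92.3 to 95.6% in Y641-F libraries, and *Ncam1* 10.02 to 12.3% and 1.05 to 2.36%. The choice of *Ncam1* for its fall fixes the direction of its share and bears on that of *L1cam*, whose own level fell. Among these 6, *L1cam* was the most abundant in both groups. *Cntnap2*, another neural adhesion gene described below, was higher, at 25.85 CPM per kb in Control and 18.31 in Y641-F cells.

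**Figure D4:**
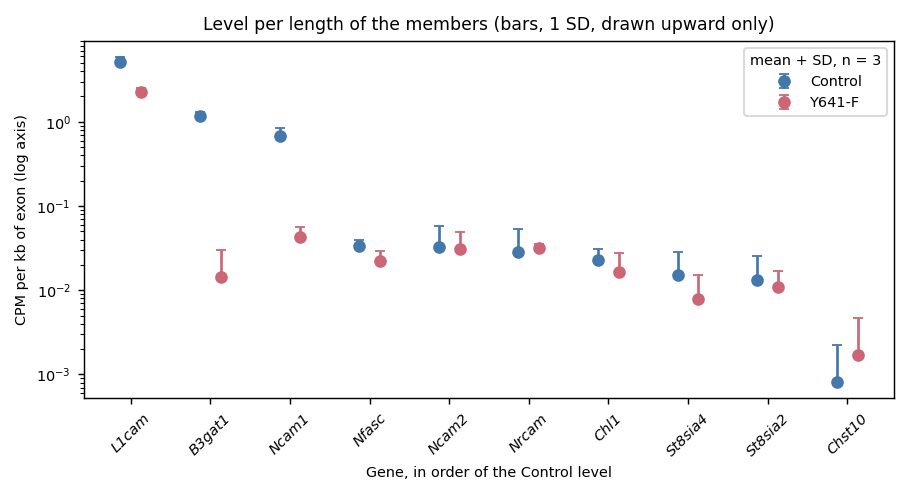
Level per kb of exon (CPM per kb, log axis) of the 10 members, as mean with 1 SD drawn upward (n = 3 libraries), in order of the Control level. *L1cam* is highest in both groups, at 5.15 and 2.25 CPM per kb, and *B3gat1* goes from 1.18 to 0.0145 CPM per kb and *Ncam1* from 0.678 to 0.0430.

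Partners and effectors of NCAM and L1 were read next, among them FGF receptors, GDNF receptor parts, the Src family kinase gene *Fyn*, integrins and ankyrins. Of the 31 listed, 30 were tested. Of these 8 were called lower, 2 higher and 20 not called (16.0% and 15.6% of all genes were called lower and higher), with a median log2 fold change of -0.20. *Gdnf*, a growth factor that NCAM binds with GFRA1, rose from 326, 217 and 244 counts to 394, 658 and 508 (log2 fold change 1.08, SE 0.188, adjusted p = 0.000945 from edgeR). Its receptor parts *Gfra1* and *Ret* never exceeded 15 counts in a library and were not called. *Itgb3*, an integrin subunit that binds L1, fell with a log2 fold change of -0.87 (adjusted p = 0.000295 from edgeR), and *Ank3*, the ankyrin that anchors L1 family members, with -0.81 (adjusted p = 0.000328 from edgeR). *Fgfr3* fell with -0.60 (adjusted p = 0.00864 from edgeR), whereas *Fgfr1*, the receptor best known to signal with NCAM, had 11, 10 and 11 counts against 7, 8 and 1 and was not called. The remaining genes called lower were *Fgfr2* (-0.32), *Fyn* (-0.47), *Ptpra* (-0.39), *Itgav* (-0.37) and *Ank2* (-0.36). Their adjusted p were 0.0405, 0.0114, 0.00294, 0.0120 and 0.0244 from edgeR. The other partner called higher was *Egfr*, the EGF receptor (0.53, adjusted p = 0.00283 from edgeR). *Itgb1*, the most abundant of the list, was not called (log2 fold change 0.20, adjusted p = 0.174 from edgeR).

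Other neural adhesion molecules of the immunoglobulin and contactin-associated classes numbered 29 in the table, and 23 were tested. Of these 6 were called lower, 1 higher and 16 not called, where all genes gave 16.0% lower and 15.6% higher, with a median log2 fold change of -0.35. *Ntm*, neurotrimin, a GPI-anchored adhesion molecule of neurons, had Control counts of 283, 304 and 187 and Y641-F counts of 15, 19 and 23. The groups were far apart, and *Ntm* fell by 3.65 on the log2 scale (SE 0.239, adjusted p = 8.53e-07 from edgeR). Its relatives *Lsamp* (log2 fold change -0.19) and *Opcml* (-0.14) were not called (adjusted p = 0.246 and 0.671 from edgeR). *Cntnap1*, of the paranodal junction, fell with -0.94 (adjusted p = 8.19e-05 from edgeR), *Igsf9*, an adhesion molecule of dendrites, with -0.59 (adjusted p = 0.00249 from edgeR) and *Cntnap2*, which encodes Caspr2 of the juxtaparanode and was the most abundant of the list, with -0.50 (adjusted p = 0.00354 from edgeR). The gene called higher was *Alcam* (0.30, adjusted p = 0.0235 from edgeR), and *Cntn4*, a contactin, and *Cadm4* were the remaining genes called lower (-1.33 and -0.44, adjusted p = 0.00655 and 0.0265 from edgeR).

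The genes around *Ncam1* and *B3gat1* were read to see whether the low reads extended along chromosome 9. Of the 5 protein-coding genes on each side of *B3gat1*, 9 were tested, and 1 was called lower, 1 higher and 7 not called. Over all genes tested 16.0% were called lower and 15.6% higher. *Thyn1*, 236.0 kb away, rose (log2 fold change 0.51, SE 0.0935, adjusted p = 0.00126 from edgeR), and *Eepd1*, on the other side, fell by 0.34 on the log2 scale (SE 0.117, adjusted p = 0.042 by edgeR). *Eepd1* missed the threshold under 8 of its 14 alternatives, with adjusted p of up to 0.15 by edgeR. *Glb1l2*, which overlaps the end of *B3gat1* by 60 exon bases on the opposite strand, had 0 to 3 counts in a library. The 7 not called were *Glb1l3* (0.40), *Gm1110* (-1.34), *Acad8* (-0.17), *Vps26b* (-0.06), *Septin7* (0.12), *Herpud2* (0.04) and *Dpy19l2* (0.38), and *Tbx20* was not tested. *Glb1l3* (3 to 6 counts in a library) and *Gm1110* (0 to 12) were too low to show a fall. The next gene on that side, *Acad8*, lies 208.8 kb away. Around *Ncam1*, 6 of 10 were tested, with 1 called lower (*Plet1*, -0.30, adjusted p = 0.0164 from edgeR), 1 higher (*Zw10*, a kinetochore protein gene, 0.30, adjusted p = 0.028 from edgeR) and 4 not called. *Drd2*, a dopamine receptor gene 94.0 kb from *Ncam1*, had 42, 24 and 28 counts against 34, 28 and 28 (log2 fold change 0.04, adjusted p = 0.948 from edgeR). *Pts* (-0.30), *Bco2* (-0.59) and *Il18* (-0.16) were the others not called, and *Ttc12*, *Ankk1*, *Tmprss5* and *Tex12*, with at most 7 counts in a library, were not tested. *Zw10* missed the threshold under 4 of its 14 alternatives, without Control 1, 2 or 3 or Y641-F 3, and *Plet1* under 2, without Control 1 or Y641-F 3. Past these neighbours, *Ntm*, described above, lies on the same chromosome (GRCm39, chr9:28906045-29874437). *Opcml* (GRCm39, chr9:27702071-28837232), between *B3gat1* and *Ntm*, was not called (-0.14). Of all 1035 genes tested on chromosome 9, 17.1% were called lower. Of the 15 neighbours tested 4 were called, and this count fell to between 1 and 4 when single libraries were left out, with 1 without Control 1 or Y641-F 3 and 2 without Control 2 or Control 3.

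**Figure D5:**
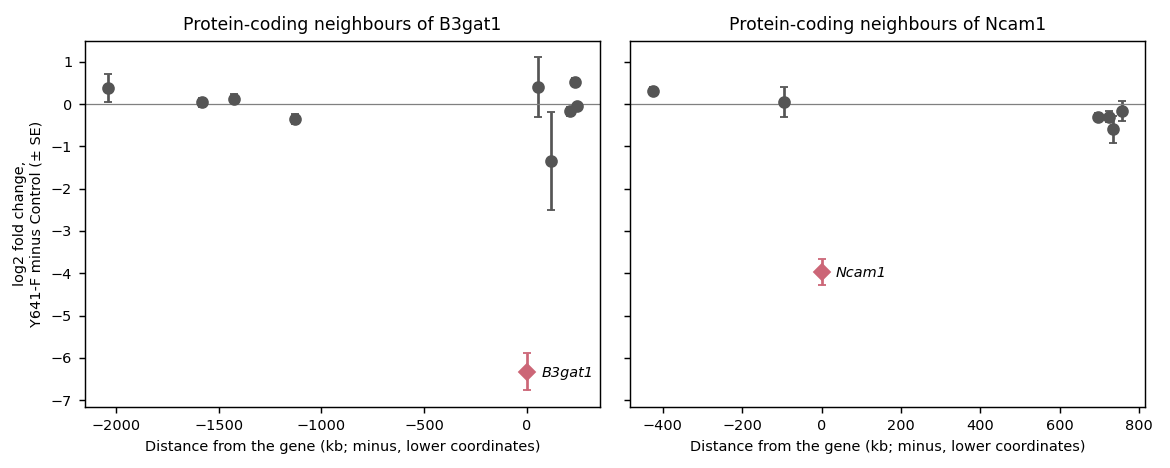
Log2 fold change (Y641-F against Control) of the tested protein-coding genes within 5 places of *B3gat1* and *Ncam1*, by distance from the gene in kb, with bars for the SE and the gene itself at 0. *B3gat1* at -6.32 and *Ncam1* at -3.97 lie far below every neighbour shown, which range from -1.34 to 0.51. Both genes were chosen for their fall, so a gap in this direction follows from the choice.

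Genes most like *Ncam1* and *B3gat1* were ranked by the Euclidean distance between log2 CPM profiles centred over the 6 libraries, among 13796 candidates, as a description. Nearest to *Ncam1* were *LOC118567918* (distance 0.846), *Ntm* (0.900), *Gm46371* (0.922), *Gm9725* (1.12) and *3300002A11Rik* (1.17). Nearest to *B3gat1* were *Lhx5* (0.579), a LIM homeobox transcription factor of the developing brain, *Gm10684* (0.802), a long non-coding RNA that RefSeq also places on chromosome 9, *Kctd16* (0.812), a subunit of GABA-B receptor complexes, *Pkdcc* (0.875), a secreted kinase, and *Tmem211* (1.22). *Lhx5* had Control counts of 210, 179 and 198 and Y641-F counts of 3, 2 and 0. *Kctd16* had 658, 670 and 617 against 13, 13 and 7.

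Markers of other cells were read beside these results, where 16.0% of all genes tested were called lower and 15.6% higher. The neuronal and neuroendocrine list summed to 36.7 to 38.5 CPM in Control libraries and 19.6 to 25.3 CPM in Y641-F libraries, and 7 of its 14 genes were tested with 1 called lower and 6 not called. The gene called was *Map2*, the most abundant of the list, at 33.7 CPM in Control and 20.3 CPM in Y641-F cells, with 1195, 1196 and 1148 counts against 705, 508 and 778 (log2 fold change -0.73, adjusted p = 0.0013 from edgeR). Of the other 6 tested, *Stmn2* (-1.15), *Rbfox3* (-0.41), *Syt1* (-0.28) and *Tubb3* (-0.20) had negative log2 fold changes. Those of *Syp* (0.24) and *Elavl3* (0.004) were positive, and the median of the list was -0.28. *Nefm*, a neurofilament, was at 0 in every library, and *Snap25*, a synaptic protein gene, had 0 to 6 counts. The glial list summed to 76.1 to 82.8 CPM against 60.9 to 65.3 CPM, with *Cnp* most abundant and called lower. The fibroblast and endothelial list summed to 6.54 to 7.74 CPM against 5.11 to 6.63 CPM, with *Lum* at 0 in every library. Its most abundant gene, *Tek*, was not called (log2 fold change 0.07, adjusted p = 0.805 from edgeR). Of its 5 genes tested 1 was called lower, *Col1a1* (64, 87 and 50 counts against 10, 22 and 12, adjusted p = 0.00116 from edgeR), and the median log2 fold change was 0.07. Their part in the result was not tested.

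The NK and other haematopoietic list, read because NCAM and CD57 are also markers of NK cells, summed to 7.33 to 19.6 CPM in Control libraries and 9.26 to 11.3 CPM in Y641-F libraries. By edgeR 0 of its 5 tested genes were called, against 16.0% lower and 15.6% higher over all genes tested. At an unadjusted p under 0.05 there was 1, *Ptprc* (CD45), with a log2 fold change of -1.46 (unadjusted p = 0.0166, adjusted p = 0.052 from edgeR). The most abundant, *Csf1r*, had a log2 fold change of 0.38 (adjusted p = 0.134 from edgeR). *Nkg7* was at 0 in every library and *Ncr1* had 0 to 2 counts. The top value was that of Control 2, where *Lyz2* had 325 counts against 33 to 81 in the other 5 libraries and *Ptprc* 85 against 13 to 24. *Nrcam*, *Ncam2* and *St8sia4* also had their highest count in Control 2 (39, 26 and 22), as did *B3gat1*, *Chl1* and *St8sia2* (240, 16 and 5). Without that library the log2 fold changes of *Nrcam*, *Ncam2*, *St8sia4* and *Chl1* were 1.14, 0.50, -0.03 and -0.16 (adjusted p = 0.153, 0.711, 0.986 and 0.903 from edgeR).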

How the data were processed

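RNA-seq of 3 Control and 3 Y641-F libraries of 4T-1 cells was re-analysed from the deposited counts, which the authors made as raw reads per gene and did not normalize. Per the submitters' processing notes reads were trimmed with fastp 0.20.1, aligned to GRCm39 with STAR 2 and counted with featureCounts 2.0.1. For the counting step, annotation and strand setting were not given in the sources used here. All sample columns were used (0 left out), and groups came from the labels. The fit used edgeR 4.0.16 (R 4.3.3), and limma 3.58.1 and DESeq2 1.42.0 served alternatives. A gene needed 0.1 CPM or more in 3 or more libraries, and TMM scaled the libraries. The quasi-likelihood test of edgeR was two-sided, with Benjamini-Hochberg adjustment over all genes kept and a threshold of 0.05, and was tested on simulated data. CPM values use the TMM-scaled library sizes.

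The members and gene lists were chosen with earlier results of these data known. All members were named. From each related list, the text names up to 4 called genes of largest change whose mean count reached 50, plus the most abundant gene, and for other cell types the most abundant gene and markers at 0. The 5 neighbours on each side and the 5 most similar genes (prior count 2) were also named. *B3gat2*, *B3gat3*, *B4galt2*, *Ptprz1*, *Ncan*, *Chst14*, *St3gal2*, *Slc35a1*, *St3gal5*, *Neu1*, *Egfr*, *Fgfr2*, *Fyn*, *Ptpra*, *Itgav*, *Ank2*, *Alcam*, *Cntn4*, *Cadm4*, *Krt19*, *Cldn3*, *Cldn7*, *Col1a1*, *Syp*, *Tubb3*, *Stmn2*, *Rbfox3*, *Syt1*, *Elavl3*, *Lsamp*, *Opcml*, *Gfra1*, *Ret*, *Fgfr1*, *Snap25*, *Ncr1*, *Lyz2*, *Ptprc*, *Arhgap4*, *Gm11149* and *Glb1l2* fall outside that rule, and their values had been seen when they were named. Positions and exon lengths are from GRCm39 and GENCODE vM39, and promoter windows are from RefSeq on GRCm38.p6, whose coordinates are not those of GRCm39. Figures used Python 3.11.15 with pandas 2.3.3 and matplotlib 3.10.9. As alternatives, each library was left out in turn, the replicate number was added as a block, and limma-voom, the DESeq2 Wald test and the edgeR likelihood ratio test replaced the main test. Size factors of DESeq2, upper-quartile scaling and both a stricter and no low-count filter were also tried. The floor of 3 counts covers counting error only. The 95% intervals of log2 fold changes come from the fit and include the spread between libraries.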

Additional observations from a re-analysis of the deposited data

How the results depend on the processing

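*L1cam* kept its direction and its call under all 14 alternatives, with log2 fold changes of -1.29 to -1.08 and adjusted p up to 0.000581 (edgeR, limma-voom or DESeq2). *Ncam1* ranged from -4.17 to -3.74 and *B3gat1* from -7.49 to -5.73. Of all values recomputed 664 stayed the same, 17 lost their call, 7 moved and 15 changed sign. For single genes with a test, the same meant an unchanged direction and side of the threshold. For counts of called genes it meant a change within a set ratio. For *Ncam1* and *B3gat1* it meant a shift smaller than the spread between libraries, and larger changes of these or of the counts were labelled moved. With single libraries left out, the count of called neighbours of *Ncam1* and *B3gat1* ranged from 1 to 4 and that of the polysialic acid list from 5 to 8. Those fits test fewer libraries. No value that changed sign was called. Leaving out single libraries, *Ezh2* ranged from -0.0219 to 0.13, *Ncam2* from -0.68 to 0.50, *Nrcam* from -0.19 to 1.14, *Nans* from -0.0699 to 0.0118, *Herpud2* from -0.0295 to 0.14 and *Drd2* from -0.14 to 0.27. *Ncam2* was 0.26 with limma-voom and 0.0204 with the replicate block. The cause was not tested.

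Same-numbered libraries did not deviate together (correlations -0.07, -0.00402 and 0.102), though so few libraries cannot exclude that they were prepared as pairs. The replicate block gave 3244 lower and 3149 higher calls against 3374 and 3277 without it. Upper-quartile factors gave 3694 lower and 3088 higher, and leaving out Control 2 2458 and 2273. Low counts limit *Ncam2*, *Chl1*, *Nrcam*, *Nfasc*, *St8sia4*, *St8sia2* and *Chst10*, none of which passed 39 counts in a library. Spread between libraries also limits *Ncam2* (18, 26 and 2 Control counts), *Nrcam* (11, 39 and 8) and *St8sia4* (8, 22 and 3).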
